A study of Mus musculus with 6 samples.

Results

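The EMT transcription factors are the proteins Snai1, Snai2, Twist1, Twist2, Zeb1, Zeb2, Prrx1 and Tcf21, which drive epithelial or endothelial cells towards a mesenchymal state. They were taken by gene symbol, and 7 of the 8 had a row among the 13595 genes of the deposited table. Tcf21 was not analysed here. The study grew CD31-positive cells, selected for an endothelial surface protein, from liver tissue of C57BL6/J mice aged 4 weeks. Cells of all 6 libraries were exposed to indoxyl sulfate at 100 µM, a tryptophan metabolite that activates the aryl hydrocarbon receptor, and to hypoxia with nutrient deprivation for 6 hours. Replicates 4, 5 and 6 carried the label male, and another 3 with the same numbers the label female. Because every library had both treatments, the only contrast was between the sex labels under treatment, and untreated or DMSO cells were not analysed here. The labels do not say whether a replicate is a mouse, a pool of mice or a well, so the p-values measure spread between these libraries, which may be technical.

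Epithelial to mesenchymal transition (EMT), and its endothelial form, is the program by which sheet-forming cells lose their junctions and take on the shape, matrix and motility of mesenchymal cells. Snail factors (Snai1, Snai2) are zinc-finger repressors that bind E-boxes in the promoters of junction genes such as Cdh1, and Zeb factors bind the same kind of site through clusters of zinc fingers on either side of a homeodomain. Twist factors and Tcf21 are basic helix-loop-helix proteins that bind DNA as dimers with E proteins, and Prrx1 is a paired-type homeodomain protein of mesenchymal cells. In the liver these factors are known from stellate cells, fibroblasts and mesothelial cells, and in endothelium from the forming heart valves, where endocardial cells become mesenchyme.

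Summed over all genes, a library held 22303270 to 31189363 reads. Values are normalized read counts, that is, whole reads divided by 1 factor per library, and 1 read was worth between 0.0353 and 0.0475. The 7 factors were read at values from 3.86 to 473, which was 93 to 11410 reads, so each was above the filter in all 6 libraries. Xist separated the groups (234 to 324 in the libraries labelled female, 0.124 to 0.458 in those labelled male), but all 4 Y-linked genes examined were also present in the libraries labelled female. Ddx3y (48.5 to 57.7 there, 47.2 to 76.3 in those labelled male) and Uty (24.1 ± 3.12 and 26.9 ± 4.41, SD, n = 3) overlapped between the groups. Eif2s3y (29.4 to 30.2 and 55.3 to 61.2) and Kdm5d (17.6 to 20.8 and 30.7 to 37.5) were lower in the libraries labelled female without overlap. Each direction below rests on the labels. Of 12568 genes tested, 69.3% differed between the groups (limma adjusted p under 0.05), 34.6% higher and 34.6% lower where the label was female. For 74.1% of the genes the groups of 3 libraries did not overlap. Fold changes below are log2 differences, female minus male, on the log2(value + 1) scale.

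Of the 7 factors, 6 (85.7%, against the 69.3% of all genes) differed between the groups. In the libraries labelled female, Snai1, Twist2, Zeb1 and Prrx1 were lower, and Zeb2 and Twist1 were higher. Snai2 did not pass the test, and it was also the only factor of the 7 whose groups overlapped, so 6 of 7 did not (74.1% of all genes). The median log2 difference was -0.87 over the 7 factors and 0.01 over all tested genes. The median absolute log2 difference was 0.87 and 0.46, in the same order. In each of the 3 paralog pairs, the library means of the 2 members lay on opposite sides of the contrast. For the Snail pair this included Snai2, which did not pass, and all tested genes were split evenly (34.6% higher and 34.6% lower).

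**Figure D1:**
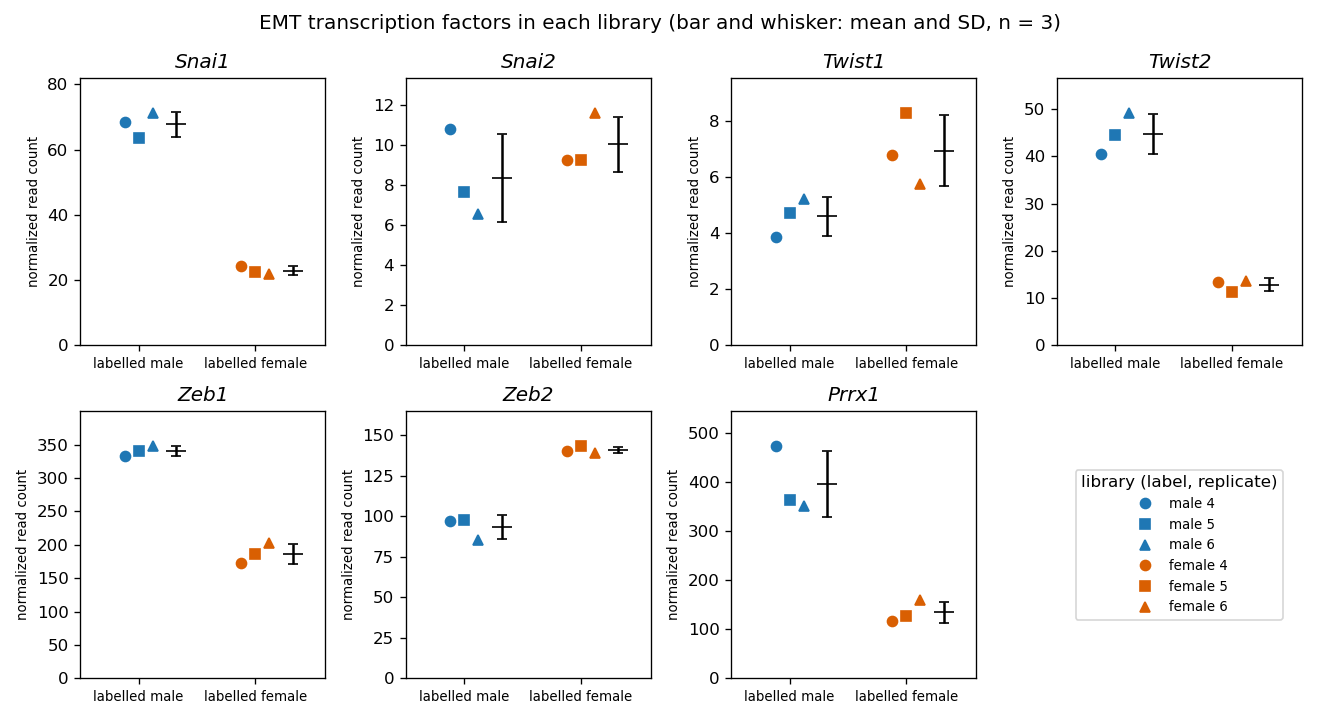
Normalized read count of the 7 factors in each library, with a linear axis from 0 in every panel; points are libraries and the bar with whisker is the mean and SD (n = 3). Snai1, Twist2, Zeb1 and Prrx1 sit lower in the libraries labelled female, Zeb2 and Twist1 sit higher, and the groups overlap for Snai2.

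Snai1, on chromosome 2, represses Cdh1 and other junction genes and turns over fast as a protein. It was read at 68.5, 63.6 and 71.2 in male 4, 5 and 6, and at 24.4, 22.4 and 21.8 in female 4, 5 and 6. The groups lay far apart, and within each group the libraries were close together. The means were 67.7 ± 3.83 and 22.8 ± 1.36 (SD, n = 3), so that the level in the libraries labelled female was 33.7% of that in those labelled male. The log2 difference was -1.53 (limma SE 0.08 and adjusted p 7.77e-07), and 9.91% of all tested genes had an absolute log2 difference at least as large.

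Snai2, on chromosome 16, is the second Snail factor, known from neural crest and from migrating epithelium. Its values were 10.8, 7.66 and 6.57 in male 4, 5 and 6, and 9.25, 9.24 and 11.6 in female 4, 5 and 6. The groups overlapped, because male 4 lay above the lower 2 libraries labelled female. The log2 difference was 0.26 (limma SE 0.17 and adjusted p 0.216). Without male replicate 4 it was 0.44 and passed the test as higher (limma adjusted p 0.00948), so this library decided the call. In that fit 74.8% of all genes passed, against 60.3% to 63.4% when any other library was left out.

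Twist1, on chromosome 12, is a helix-loop-helix factor of cranial and limb mesenchyme. It was read at 3.86, 4.73 and 5.23 in the libraries labelled male and 6.76, 8.27 and 5.75 in those labelled female, in the order of replicates 4, 5 and 6. The groups did not overlap, but female 6 and male 6 were only a small step apart. The log2 difference was 0.50 (limma SE 0.15 and adjusted p 0.0172). Without female replicate 5 it was 0.38 and no longer passed (limma adjusted p 0.0714).

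Twist2, on chromosome 1, shares the helix-loop-helix domain of Twist1 and is known from dermal fibroblasts. It was read at 40.6, 44.6 and 49.2 in male 4, 5 and 6, and at 13.4, 11.3 and 13.7 in female 4, 5 and 6. Every library labelled male was far above every library labelled female. Its mean of 12.8 ± 1.34 in the libraries labelled female was 28.6% of the 44.8 ± 4.30 in those labelled male (SD, n = 3). With a log2 difference of -1.73 (limma SE 0.11 and adjusted p 2.32e-06), it had the largest change of the 7 factors, and 7.78% of tested genes changed by as much.

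Zeb1, on chromosome 18, represses epithelial genes and the miR-200 genes. It was at 333, 341 and 347 in male 4, 5 and 6, and at 172, 186 and 202 in female 4, 5 and 6. The libraries labelled male were within a narrow range, and those labelled female were all lower, at 54.8% of the male mean. The log2 difference was -0.87 (limma SE 0.07 and adjusted p 1.08e-05). A change of that size or more was seen in 25.2% of tested genes.

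Zeb2, on chromosome 2, is the second Zeb factor, known from neural crest, macrophages and stellate cells. Its values were 97.0, 97.8 and 85.0 in male 4, 5 and 6, and 140, 143 and 139 in female 4, 5 and 6. The groups did not overlap, and the libraries labelled female were almost equal. The mean rose from 93.3 ± 7.13 to 141 ± 2.03 (SD, n = 3), with a log2 difference of 0.59 (limma SE 0.07 and adjusted p 9.48e-05), a size reached by 39.5% of tested genes.

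Prrx1, on chromosome 1, is a homeodomain factor of limb and fibroblast mesenchyme. It was at 473, 363 and 351 in male 4, 5 and 6, and at 117, 127 and 159 in female 4, 5 and 6. Male 4 was high within its group and female 6 within its own, yet the groups stayed apart. The means were 396 ± 67.3 and 135 ± 21.8 (SD, n = 3), a log2 difference of -1.55 (limma SE 0.14 and adjusted p 2.20e-05). Without male replicate 4 the log2 difference was -1.41.

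In the authors' deposited table, 1 of the 7 factors, Snai1, had a false discovery rate under 0.05 (fold change -2.97, false discovery rate 0.000213), where 25.8% of all genes of that table did. The authors' deposited table gave Prrx1 a fold change of -2.94 with a false discovery rate of 0.0815, and Zeb1 a fold change of -1.82 with 0.0914. It gave Twist2 a fold change of -3.49 with 0.131 and Zeb2 a fold change of 1.51 with 0.340. All 7 had the same sign in the authors' deposited table as in the limma fit.

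Levels of the 7 factors were compared with each other only per kilobase of the longest coding transcript in GENCODE M21, and the transcripts in use in these cells were not measured. Per kilobase, the order in the libraries labelled male was Prrx1 (60.6 ± 10.3), Zeb1 (58.7 ± 1.24), Snai1 (41.8 ± 2.36), Twist2 (17.7 ± 1.70), Zeb2 (10.2 ± 0.781), Snai2 (4.13 ± 1.09) and Twist1 (2.83 ± 0.426), each SD with n = 3. Prrx1 and Zeb1 overlapped between libraries, and no other neighbours in that order did. In the libraries labelled female the order per kilobase was Zeb1 (32.2 ± 2.59), Prrx1 (20.6 ± 3.34), Zeb2 (15.4 ± 0.222), Snai1 (14.1 ± 0.842), Twist2 (5.07 ± 0.532), Snai2 (4.96 ± 0.669) and Twist1 (4.25 ± 0.779). There Twist2, Snai2 and Twist1 overlapped with their neighbours, and the others did not. Zeb2 thus stood in the fifth place in one group and the third in the other.

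The balance within each paralog pair was taken in each library as the share of the first member in the sum of both, per kilobase. Snai1 made up 88.7%, 91.2% and 93.1% of the Snail pair in male 4, 5 and 6, and 76.6%, 75.1% and 70.1% in female 4, 5 and 6. Snai1 was the larger part in every library, by a smaller margin in those labelled female. The log2 ratio of Snai1 to Snai2 differed by -1.86, a 3.62-fold change.

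Zeb1 made up 84.4%, 84.6% and 86.5% of the Zeb pair in male 4, 5 and 6, and 65.9%, 67.1% and 69.6% in female 4, 5 and 6. The groups did not overlap, and the log2 ratio of Zeb1 to Zeb2 differed by -1.47. Twist1 made up 12.9%, 14.1% and 14.2% of the Twist pair in male 4, 5 and 6, and 43.8%, 53.2% and 39.4% in female 4, 5 and 6. Twist2 was thus the larger part in every library labelled male, and the pair was near balance in those labelled female. The log2 ratio of Twist1 to Twist2 differed by 2.39, a 5.24-fold change. For each of the 3 pairs the exact two-sided permutation test gave p = 0.10, also after adjustment over the 3 pairs, which is the smallest p that 3 against 3 libraries can give.

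The pair sums per kilobase were lower in the libraries labelled female for all 3 families. They were 45.9 ± 2.52 and 19.0 ± 0.626 for the Snail pair, 20.6 ± 2.12 and 9.33 ± 0.317 for the Twist pair, and 68.9 ± 0.763 and 47.6 ± 2.53 for the Zeb pair, given as male and then female (SD, n = 3).

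**Figure D2:**
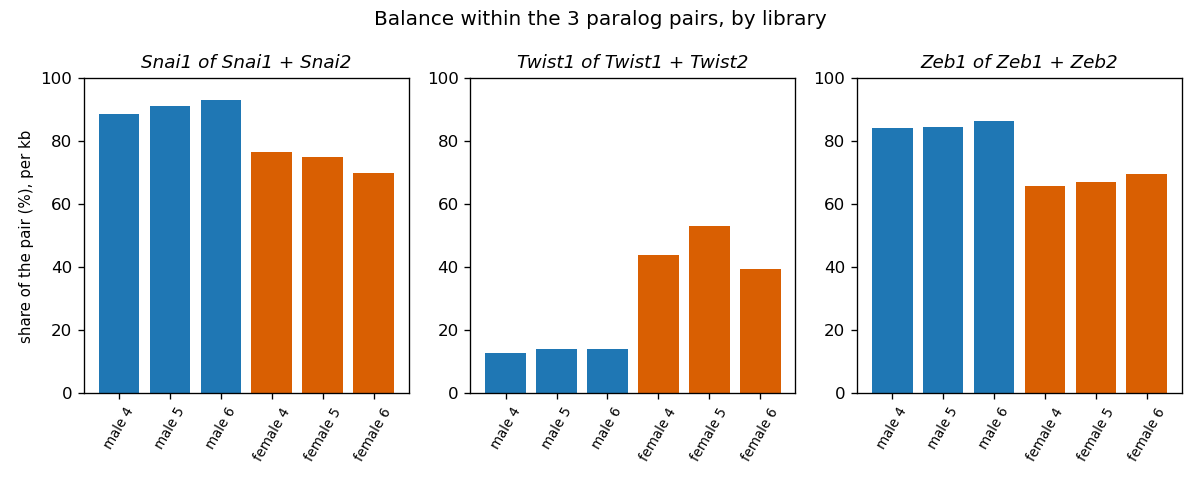
Share of the first member in each paralog pair, in percent of the sum of both per kilobase of transcript, by library (bars from 0; blue, labelled male; orange, labelled female). The share of Snai1 and of Zeb1 is lower where the label is female, and the share of Twist1 is higher, from 39.4% to 53.2% against 12.9% to 14.2%.

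The 250 bases before the start of Snai1, Twist1 and Twist2 are shown because Snai1 and Twist2 had the largest changes of their families and Twist1 lay on the other side of the contrast from Twist2. Sequences are from RefSeq, build GRCm38.p6, and are written in the direction of transcription. The submitters' processing notes name mm39, so these positions are not those of the authors' build. Windows were found for 5 of the 7 factors, 8 windows in all. Capitals mark matches, on either strand, to 3 motifs: GCGTG, the core of the aryl hydrocarbon receptor site and one form of the hypoxia-inducible factor core; ACGTG, the other form of that core; and CACCTG, the E-box bound by Snail and Zeb factors. A match on the other strand is capitalized as its reverse complement, and no matches overlapped in these 3 windows.
Snai1, chr2:167537945-167538194, + strand: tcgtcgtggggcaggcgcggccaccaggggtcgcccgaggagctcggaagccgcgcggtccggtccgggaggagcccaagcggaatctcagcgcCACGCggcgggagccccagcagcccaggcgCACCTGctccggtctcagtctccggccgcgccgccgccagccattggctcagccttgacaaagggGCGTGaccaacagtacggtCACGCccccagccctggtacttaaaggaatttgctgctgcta
Twist1, chr12:33957421-33957670, + strand: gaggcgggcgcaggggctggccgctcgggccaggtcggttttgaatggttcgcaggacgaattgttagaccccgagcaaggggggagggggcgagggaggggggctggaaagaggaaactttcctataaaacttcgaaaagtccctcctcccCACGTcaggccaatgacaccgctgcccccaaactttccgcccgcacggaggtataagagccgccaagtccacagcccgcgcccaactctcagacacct
Twist2, chr1:91801211-91801460, + strand: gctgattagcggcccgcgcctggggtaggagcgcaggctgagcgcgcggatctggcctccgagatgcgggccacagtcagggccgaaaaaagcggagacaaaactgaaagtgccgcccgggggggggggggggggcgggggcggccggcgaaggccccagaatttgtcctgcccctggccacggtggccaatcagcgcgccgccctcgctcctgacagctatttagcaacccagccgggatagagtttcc

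The Snai1 window held 3 matches to GCGTG, which began 156, 61 and 42 bases before the start, and 1 match to CACCTG, which began 126 bases before it. Of 32851 windows of this length, 28.2% held GCGTG at least once, 2.77% held it 3 times or more, and 17.2% held CACCTG. The Twist1 window held 1 match to ACGTG, 98 bases before the start, as 16.6% of windows did. The Twist2 window, like that of Prrx1, held none of the 3 motifs. Of the 4 windows of Zeb2, the 2 that overlap each other held GCGTG once. These matches describe letters in a short window and no binding was measured.

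Twist factors act with E proteins (Tcf3, Tcf4, Tcf12), and Id proteins, which lack a DNA-binding region, take E proteins out of such dimers. The 3 tested Id genes were higher in the libraries labelled female and the 3 E proteins lower, so that 6 of 6 tested genes of the group passed the test, against 69.3% of all genes. Tcf4 was at 277, 231 and 226 in male 4, 5 and 6, and at 74.0, 82.4 and 93.4 in female 4, 5 and 6. All libraries labelled male were above all labelled female, with a log2 difference of -1.54 (limma SE 0.11 and adjusted p 4.52e-06). Tcf12 (log2 difference -0.51, limma adjusted p 8.62e-05) and Tcf3 (-0.29, limma adjusted p 0.00414) changed by less.

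Id1 was at 10.7, 7.97 and 9.08 in male 4, 5 and 6, and at 31.0, 31.3 and 29.6 in female 4, 5 and 6, a log2 difference of 1.63 (limma SE 0.11 and adjusted p 4.18e-06). Id2 was at 13.3, 14.3 and 14.5 against 46.1, 56.4 and 47.8, a log2 difference of 1.76 (limma SE 0.09 and adjusted p 1.13e-06). Id3 was at 10.7, 21.5 and 27.0 against 69.7, 68.3 and 59.2, a log2 difference of 1.77 (limma SE 0.27 and adjusted p 0.000509), and male 4 was the lowest library. The 3 Id genes were thus higher in each library labelled female than in any labelled male. Id4 was under the filter, at 0.415 to 1.20 in the libraries labelled male and 0.855 to 1.12 in those labelled female.

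**Figure D3:**
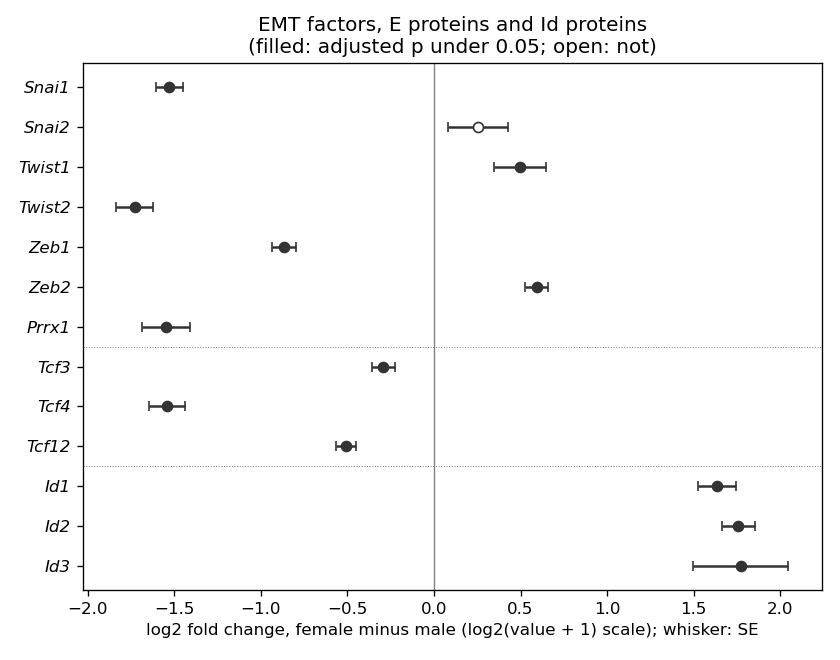
Log2 fold change, female minus male on the log2(value + 1) scale, of the 7 EMT factors (top), the E proteins (middle) and the Id proteins (bottom), with whiskers for the SE. Snai1, Twist2, Zeb1, Prrx1 and the 3 E proteins lie below 0, Twist1, Zeb2 and the 3 Id genes lie above 0, and Snai2 is open because it did not pass the test.

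Snail and Zeb factors silence genes through corepressors, and 11 of the 13 tested corepressor genes passed the test, 5 of them higher and 6 lower, where 69.3% of all genes passed and 34.6% did in each direction (median log2 difference 0.01). Ajuba, a LIM protein that bridges Snail factors to chromatin enzymes, had the largest change, from 7.17 ± 0.195 to 53.4 ± 3.01 (SD, n = 3), a log2 difference of 2.73 (limma SE 0.08 and adjusted p 6.61e-08). Ezh2, the methyltransferase of the Polycomb complex, was higher by 1.02 and Rcor1, which joins Kdm1a to its partners, was lower by -0.97, both log2 differences. The Zeb partners Ctbp1 (0.41) and Ctbp2 (0.48) were higher.

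Among 13 kinases and ubiquitin ligases that control how long Snail, Zeb and Twist proteins last, 5 were higher and 4 lower (median log2 difference 0.21), a share near the 69.3% of all genes. Fbxo11, a ligase for Snai1, was higher by 0.74 and Fbxo45 by 0.51, while the kinases Csnk1a1 (-0.48) and Gsk3b (-0.38) were lower, all as log2 differences. Without female replicate 4, 5 of the 13 passed the test, where 61.1% of all genes did. It was 6 of 13 without male replicate 5, male replicate 6 or female replicate 5, where 63.4%, 62.4% and 60.3% of all genes did. Protein was not measured.

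TGF-beta signals induce these factors in many cell types, and 18 of 24 tested genes of the pathway passed the test, 12 as lower and 6 as higher, where 69.3% of all genes passed and 34.6% did in each direction (median log2 difference -0.35). Tgfb1 was at 202, 237 and 237 in male 4, 5 and 6, and at 82.3, 75.6 and 66.1 in female 4, 5 and 6, a log2 difference of -1.58 (limma adjusted p 2.36e-06). The receptor genes Tgfbr2 (-1.11), Tgfbr3 (-2.17) and Acvrl1 (-1.82) and the inhibitor Smad7 (-1.36) were also lower. Tgfb2 (0.41), Inhba, a subunit of activin (2.02), and Ltbp2, a matrix protein that resembles the TGF-beta binding proteins (2.38), were higher. Tgfb3 (-0.06, limma adjusted p 0.409) and Tgfbr1 (0.03, limma adjusted p 0.735) did not pass.

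The other transcription factors of mesenchymal cells went in both directions. Of 27 tested, 12 were higher and 12 lower, against 34.6% of all genes in each direction (median log2 difference 0.01), but 8 of these had passed the filter only through the group where they were high and so had to differ. Without female replicate 4, and likewise without female replicate 5, 20 were tested, of which 5 were higher and 10 lower. Of all genes, 61.1% and 60.3% passed in these fits. Without female replicate 6, 6 of 20 were higher and 12 lower, where 62.5% of all genes passed. The even split thus rested on genes tested only with all 3 libraries labelled female. Wt1, a factor of mesothelium, was among the 8 that had passed the filter through 1 group only and so had to differ. It was not tested when a library labelled female was left out or with a minimum of 10 reads. Wt1 held at most 3 reads in each library labelled male and was at 11.7, 13.0 and 13.6 in those labelled female. The latter was at least 111-fold higher (3 reads per library taken as the floor). Gata4 rose from 3.75 ± 0.0909 to 32.1 ± 0.858 (SD, n = 3), a log2 difference of 2.80. Mef2c was at 110 ± 18.4 and fell to 9.66 ± 1.14 (SD, n = 3), a log2 difference of -3.37. Prrx2, the paralog of Prrx1, was higher by 1.43 where Prrx1 was lower, at 1.69 ± 0.544 and 6.24 ± 1.42 (SD, n = 3).

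Genes that EMT factors are known to switch on did not move together. Of 28 mesenchymal genes, 8 were higher and 15 lower, against 34.6% of all genes in each direction (median log2 difference -0.60), and 2 of the 28 had passed the filter through 1 group only. The contractile genes Acta2 and Tagln had the largest increases. Acta2, smooth muscle actin, was at 134, 56.4 and 45.9 in male 4, 5 and 6, and at 1887, 1682 and 1513 in female 4, 5 and 6, a log2 difference of 4.57 (limma SE 0.34 and adjusted p 6.57e-06). Male 4 was the highest of its group, far under every library labelled female. Tagln had a log2 difference of 4.43.

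Col6a1, a chain of collagen VI, had the largest decrease, from 1203 ± 88.3 to 55.7 ± 1.35 (SD, n = 3), a log2 difference of -4.41. Vim, the intermediate filament of mesenchymal cells, was at 7170, 6971 and 7169 in male 4, 5 and 6, and at 4824, 4940 and 5107 in female 4, 5 and 6, lower by a log2 difference of -0.52 (limma adjusted p 0.000554), but 0.08 under quantile normalization (limma adjusted p 0.433). Cdh2, the cadherin gained in EMT, was at 1391, 959 and 948 against 1365, 1405 and 1475, with groups that overlapped through male 4. Its log2 difference of 0.39 passed narrowly (limma adjusted p 0.0367). The call was lost without male replicate 5 (0.30) or 6 (0.29) and without female replicate 4 (0.41), 5 (0.39) or 6 (0.36), and in edgeR (0.35, adjusted p 0.0565). Without male replicate 4 it was larger and passed (0.57, limma adjusted p 2.55e-06). Fn1 did not pass (0.06, limma adjusted p 0.703), but passed as higher without male replicate 4 (0.24, limma adjusted p 0.000842) and under quantile normalization (0.51, limma adjusted p 0.00295).

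Of 31 epithelial genes known as targets of repression, 21 were in the table, 8 of these were under the filter, and of the 13 tested 8 were higher and 4 lower, against 34.6% of all genes in each direction (median log2 difference 1.01), 2 of the 13 having passed through 1 group only. Cdh1, the best known target, was close to the filter, at 0.839 to 1.33 in the libraries labelled male and 0.807 to 1.20 in those labelled female. The groups overlapped and the gene did not pass (0.04, limma adjusted p 0.828). Epcam, Cldn1, Cldn3 and Ocln stayed under a value of 1 in every library. The desmosome genes Perp (from 16.7 ± 0.672 to 141 ± 7.36; SD, n = 3) and Dsp (log2 difference 2.53, and 3.43 in DESeq2) were higher, and Krt19 (-1.99) was lower.

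The endothelial genes, which are lost in the endothelial form of the transition, were mostly lower in the libraries labelled female, 15 of 17 tested against 34.6% of all genes, with 1 higher (median log2 difference -2.23). Of these, Vwf, Nos3 and Robo4 had passed the filter only through the libraries labelled male and so had to differ. The log2 difference of Vwf was -4.71 and reached -6.29 in DESeq2, and it was not tested when a library labelled male was left out or with a minimum of 10 reads. Among the genes that passed through both groups were Egfl7 (-3.81) and Icam2 (-3.34, and -4.17 in voom). Cdh5, the cadherin of endothelial junctions, was at 925, 918 and 929 in male 4, 5 and 6, and at 392, 397 and 374 in female 4, 5 and 6, a log2 difference of -1.25 (limma SE 0.06 and adjusted p 4.14e-07). The same libraries were thus lower in endothelial genes and in Snai1, Twist2, Zeb1 and Prrx1.

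**Figure D4:**
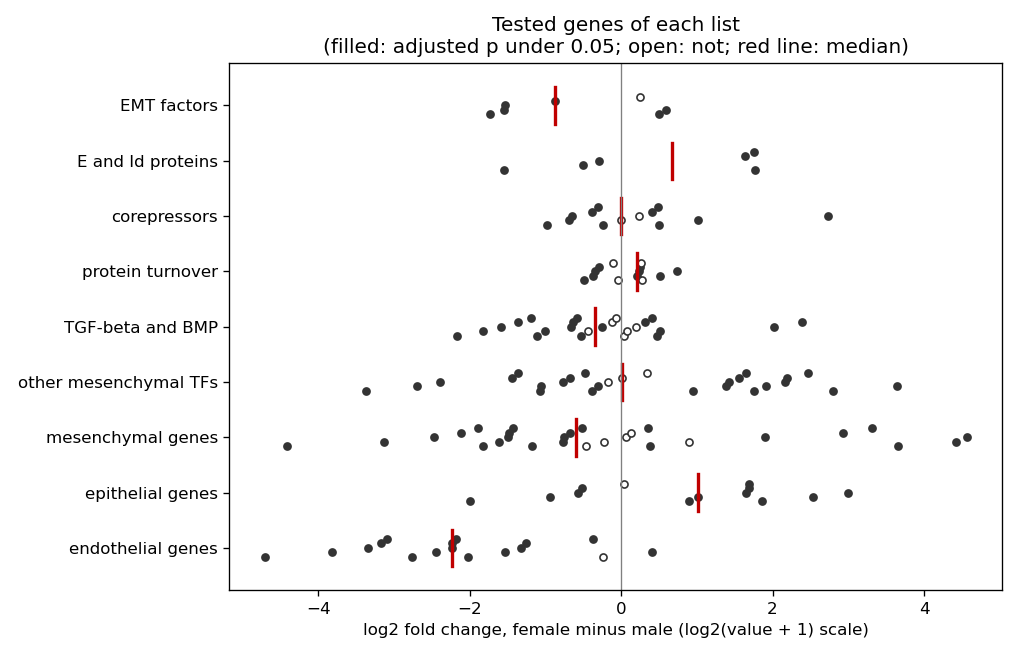
Log2 fold change, female minus male, of each tested gene in 9 lists, with the median as a red line; filled points passed the test. The EMT factors lie from -1.73 to 0.59, mesenchymal genes reach from -4.41 to 4.57, and the endothelial genes lie mostly below 0.

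Marker genes of the cell types that such cultures can hold moved with the same contrast, and their part in the results above was not tested. They are partly the genes already counted: all 10 endothelial markers are in the endothelial list, and 7 fibroblast and 4 smooth muscle markers are in the mesenchymal list. Sums are of normalized read counts not corrected for transcript length. In bulk RNA, fewer cells of a type and less RNA per cell cannot be told apart. The 10 endothelial markers summed to 1959 to 2038 in the libraries labelled male and 809 to 841 in those labelled female. Pecam1, which encodes CD31, was at 391 to 423 and 73.5 to 74.5, so the selected marker was present in all 6 libraries. Kdr, a receptor for VEGF, was at 2.34 to 3.96 over all 6. Of the 10 sinusoidal markers, Stab2, Clec4g, Fcgr2b, Oit3 and Dnase1l3 were under 1 in every library, and the sum of the list was 510 to 550 and 18.7 to 21.7, most of it Lyve1 in the libraries labelled male.

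Of 12 fibroblast markers, 11 were in the table and 9 were lower and 1 higher, against 34.6% of all genes in each direction. Of the 9, Lum, Eln and Pi16 had passed the filter only through the libraries labelled male and so had to differ. Their sums overlapped (6078 to 7621 and 6774 to 7360), with Fbln2 at 2722 to 3410 and 5489 to 6116. Pdgfra was at 56.0 to 60.7 and 16.3 to 19.5. The 10 markers of smooth muscle cells and pericytes summed to 349 to 513 and 2693 to 3407, with 6 higher and 3 lower (34.6% of all genes in each direction), and Myocd among the 6 had passed the filter only through the libraries labelled female. Acta2 and Tagln made up most of the sum in the libraries labelled female. The pericyte marker Pdgfrb went the other way, at 129 to 136 and 13.0 to 15.3, as did Mcam and Cspg4. Among mesothelial markers 6 of 7 tested were higher (34.6% of all genes), but 4 of the 6 had passed the filter only through the libraries labelled female, which leaves 2 of 3. Msln was at 17.1 to 20.6 and 299 to 358, and Upk1b at 0.498 to 0.648 and 29.1 to 41.1, while Krt19 was lower. The sums overlapped (428 to 521 and 511 to 516).

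Stellate cell markers summed to 1171 to 1325 and 1233 to 1389, almost all of it Ecm1. Of 5 tested, 2 were higher and 2 lower (34.6% of all genes in each direction), and Hand2 (higher) and Hgf (lower) had passed the filter through 1 group only. Cholangiocyte markers summed to 1641 to 2489 and 510 to 613, with Epcam under 1 in every library. Macrophage and other leukocyte markers summed to 11.9 to 14.8 and 15.4 to 18.1, with Ptprc under 1, and hepatocyte markers to 1.80 to 2.36 and 0.285 to 0.374.

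**Figure D5:**
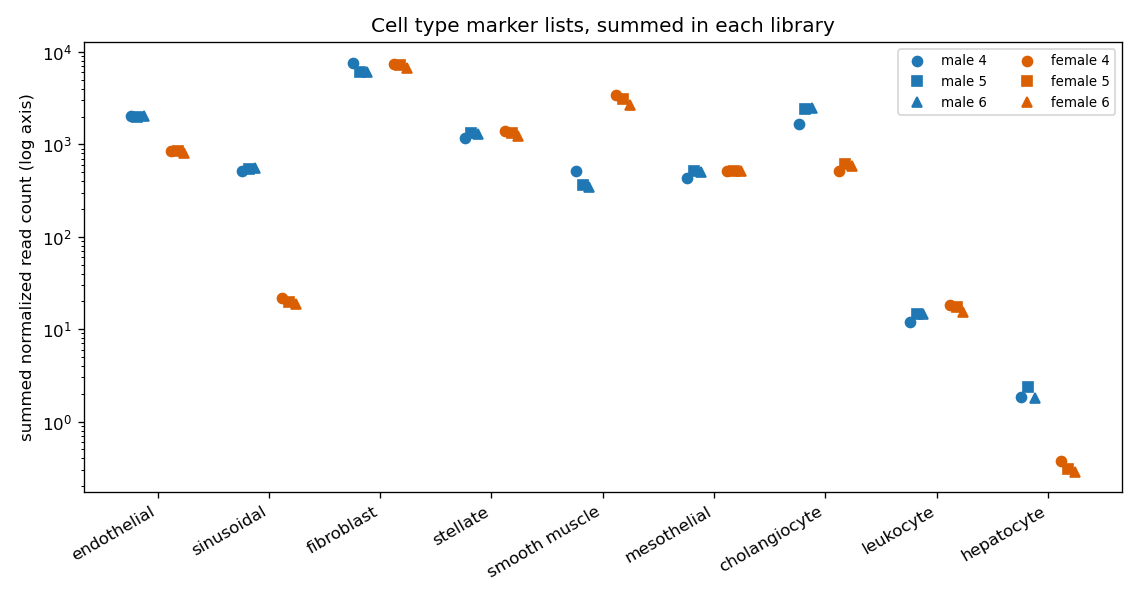
Summed normalized read count of 9 cell type marker lists in each library, on a log axis. Endothelial, sinusoidal and cholangiocyte sums are lower and smooth muscle sums higher where the label is female, and the fibroblast, stellate and mesothelial sums overlap between the groups.

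For each factor the 2 genes with the most similar profile were taken as those with the smallest root mean square difference in centred log2(value + 1) over the 6 libraries. They were Limk1 (0.0378) and Pvr (0.0455) for Snai1, Dnajc21 (0.0593) and Hmga2-ps1 (0.0638) for Snai2, and Atp5s (0.0589) and Evpl (0.0629) for Twist1. They were Arsg (0.0510) and Arrdc3 (0.0640) for Twist2, Tpi1 (0.0234) and Psme1 (0.0275) for Zeb1, and Gtf2f1 (0.0180) and Muc6 (0.0283) for Zeb2. For Prrx1 they were Apobec3 (0.0580) and Tcf4 (0.0611), the E protein described above. Hmga2-ps1 (1.87 and 2.25), Evpl (1.43 and 2.49) and Muc6 (0.640 and 1.45) had low means, given as male and then female. At such levels the log2(value + 1) scale narrows differences. Among the factors themselves, Snai1 and Twist2 were the closest pair by this measure (0.153), and Twist2 and Zeb2 the farthest apart (1.17). These profiles share the same 6 libraries in 2 groups and are given with no test.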

How the data were processed

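RNA from 6 libraries of CD31-positive mouse liver cells was sequenced after poly(A) enrichment, per the labels' protocols. The submitters' processing notes name Bowtie2, RSEM, edgeR and mm39 without versions, and neither an annotation nor the test used for the deposited comparison is given in the sources used here. The deposited signal values are whole read counts divided by 1 factor per library: 100% of values in each column were whole multiples of its smallest value above 0 (tolerance 1e-06), which gave back the reads. The deposited score is the authors' signed linear fold change, and, per the file headers, the other deposited columns hold p-values and false discovery rates. There were 0 value columns without a sample.

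limma 3.58.1 in R 4.3.3 (eBayes with trend) was run on log2(value + 1) over the 12568 genes that reached 1 in 3 or more libraries, with Benjamini-Hochberg adjustment over all of them and a threshold of 0.05. The fold changes understate changes of weakly expressed genes. Tested on simulated reads in the same layout of libraries (12437 genes), the fit recovered 99.5% of 200 genes changed by a log2 size of 1, and 6.57% of its calls were false. The simulation changed far fewer genes than were called here, chose them among well-read genes and gave every gene the same dispersion. These rates may therefore not hold for the real contrast. Alternatives included edgeR 4.0.16, DESeq2 1.42.0 and voom on the recovered reads. The factors, gene lists and the test were chosen with earlier results of these data known. Named genes were the factors, up to 3 genes per list with the largest change among called genes whose groups did not overlap, and genes of known role given whatever their values. Others (Ctbp1, Ctbp2, Gsk3b, the TGF-beta receptors, Smad7, Prrx2, Fn1, the epithelial genes under the filter, Zeb2os, Dnm3os and the markers) were named after their values were seen. Of the 13595 symbols, 95.3% were found in GENCODE M21, which gave chromosomes and transcript lengths.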

Additional observations from a re-analysis of the deposited data

How the results depend on the processing

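Of the 7 factors, the called 6 kept their direction and their side of the threshold under the 10 alternatives that used all 6 libraries (RLE size factors, TMM, quantile normalization, a pseudocount of 0.1, no filter, a minimum of 10 reads per library, the replicate block, edgeR, DESeq2 and voom), and Snai2 stayed uncalled. Across the fits that each left out 1 library, between 5 and 7 factors were called, where 60.3% to 74.8% of all genes were. The log2 fold change ran from -1.57 to -1.49 for Snai1, from 0.12 to 0.44 for Snai2 (called without male replicate 4, 0.44), from 0.38 to 0.61 for Twist1 (not called without female replicate 5, 0.38), from -1.80 to -1.65 for Twist2, from -0.92 to -0.81 for Zeb1, from 0.53 to 0.63 for Zeb2 and from -1.67 to -1.41 for Prrx1. The paralog differences kept their direction when each library was left out (-2.05 to -1.66, 2.16 to 2.57 and -1.53 to -1.39 for the Snail, Twist and Zeb pairs). They are the same from raw reads by construction. Those fits called from 7373 of all genes (60.3%, without female replicate 5) to 9113 (74.8%, without male replicate 4). They called 5 to 10 of 13 genes of protein turnover, and from 15 of 20 to 23 of 26 of the other mesenchymal factors. A further threshold of 1 on the absolute log2 difference left, by its construction, 2589 of the 12568 tested genes and 3 of the 7 factors (Snai1, Twist2, Prrx1). It also left 2 of 13 corepressors, 0 of 13 turnover genes and 9 of 24 TGF-beta genes. For the turnover genes 9 had passed at an adjusted p under 0.05 alone. The main fit did not pair libraries by replicate number. Deviations from group means correlated at -0.09, -0.03 and -0.17 for replicates 4, 5 and 6 across 12568 genes, and at -0.03 to 0.12 for unlike numbers. Deviations from a mean of 3 libraries depend on each other, so these values cannot show whether replicates were matched. With the replicate block 8314 genes and the same count of 6 factors were called. The same alternatives were applied, as a choice made after seeing the data, to the other genes named. Directions reversed for Vim under quantile normalization (0.0798), and, with 1 library left out, for Tgfbr1 (-0.0471 to 0.0826), Fn1 (-0.0260 to 0.235) and Cdh1 (-0.0195 to 0.128), which had not been called with all 6. The cause was not tested.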

Other observations

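Zeb2os, a noncoding gene on the opposite strand to Zeb2, was at 2.45, 1.30 and 1.87 in male 4, 5 and 6, and at 1.37, 0.575 and 0.760 in female 4, 5 and 6. It was lower in the libraries labelled female (log2 difference -0.60, limma adjusted p 0.0262), with groups that overlapped, while Zeb2 was higher. The log2 difference of Zeb2os ran from -1.07 to -0.56 over the 10 alternatives that used all 6 libraries. The call was lost without male replicate 4 (-0.46) or 6 (-0.59) and without female replicate 5 (-0.47) or 6 (-0.55). Whether the reads were counted by strand is not given in the sources used here, so reads of the 2 genes may not be separate. Dnm3os, the host of miR-199a and miR-214 and a known target of Twist1, was at 6.22 in male 4 against 1.33 and 0.848 in male 5 and 6, and at 4.61, 4.33 and 5.75 in female 4, 5 and 6 (log2 difference 0.90, limma adjusted p 0.10). Without male replicate 4 it passed as higher (limma adjusted p 1.66e-05).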
